A study of Mus musculus with 12 samples.

Results

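The comparison described here sets WT MEF line 2 against WT MEF line 1, 3 RNA-seq libraries each, which are 6 of the 12 libraries of the series. MEFs are mouse embryonic fibroblasts, grown from midgestation embryos, and the study's methods speak of MEF lines from individual mothers, without saying which mother gave which line, so differences between lines include every difference between the embryos used and their later culture. Both WT lines were Rtf2+/+. They were immortalized with SV40 large T antigen, transduced with the Hit & Run pMMP Cre retrovirus and collected 72 h later, and the Cre was therefore present in the controls too. The other 6 libraries were Rtf2-/lox MEFs of 2 lines numbered alike after the same Cre, called RTF2-deficient here (the methods describe the use of littermates), which entered the common fit and are otherwise used to show how the WT line differences compared with those of these MEFs. Members were taken from the column labels, and genes of chromosomes X and Y were left out of what is reported, which left 13753 autosomal genes tested out of 14263 genes in the fit. The labels number 3 libraries per group and the study describes them as technical replicates of 2 biological replicates. Whether a dish or RNA preparation was shared was not stated, so p-values measure the spread between these libraries. Which part of the embryo was used was not given in the sources used here.

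Fibroblasts keep a memory of where in the body they arose. Hox genes lie in gene clusters in which the order along the chromosome follows the order of use along the head to tail axis and, for the 5′ Hoxa and Hoxd genes, along the limb from shoulder or hip to digit, and T-box, LIM homeobox and Pitx factors mark fore limb, hind limb, dorsal limb, flank and face mesenchyme. Fibroblasts also carry the interferon pathway, in which a secreted interferon activates STAT factors that switch on antiviral genes and genes of MHC class I presentation through promoter elements of the interferon-stimulated response type.

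The 6 WT libraries held 40985986 to 44695002 counts. CPM are counts scaled to a library size of 1e6 after TMM normalization. A gene without a count in a library lay below the value of 3 counts, which covers counting error only. That value was 0.0671 to 0.0732 per 1e6 raw counts, before TMM scaling by factors of 0.975 to 1.05. Rtf2, the targeted gene, stood at 44.9, 44.8 and 47.2 CPM in WT line 1 and 57.8, 52.9 and 50.9 CPM in WT line 2, against 5.44 to 6.66 CPM in the RTF2-deficient libraries. Xist, expressed from the inactive X chromosome, was at 0.0217 to 0.132 CPM in WT line 2 and 103 to 173 CPM in the 9 other libraries, and the Y-linked gene Ddx3y was at 91.8 to 107 CPM in WT line 2 and at most 0.195 CPM elsewhere. Line and sex can therefore not be told apart between the WT lines, and the RTF2-deficient lines did not differ this way. Over autosomal genes the root mean square difference of log2 CPM was 0.395 to 0.544 within WT line 1, 0.409 to 0.689 within WT line 2 and 0.700 to 1.06 between the lines. The 13 fibroblast markers tested gave no call in edgeR (2 higher and 3 lower at an unadjusted p under 0.05), and their summed level was 23279 to 30619 CPM in line 1 and 19731 to 21799 CPM in line 2. In such bulk libraries fewer cells of a type and less RNA per cell cannot be told apart.

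Most autosomal genes differed little between the WT lines. In size, the log2 fold change of line 2 over line 1 had a median of 0.18 and 89.5% of genes lay below 1. A gene counted as called when edgeR's quasi-likelihood test gave it an adjusted p (Benjamini-Hochberg) below 0.05 together with more than a 1 log2 unit difference. In what follows a value with ± after a gene name is this log2 fold change with its standard error, unless CPM is named. By that rule 922 genes (6.7%) were called, 530 higher in line 2 (3.85%) and 392 lower (2.85%), among them 150 with a log2 fold change over 3 and 48 under -3. The 3 libraries of one line lay wholly above those of the other for 4141 genes (30.1%), 915 of the 922 called genes included. Of the called genes 884 were protein coding and 28 were lncRNAs. The count of higher genes depended on single libraries: it was 328 without replicate 2 of line 1 and 349 without replicate 1 of line 2.

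The share of members called differed from list to list over 31 lists of genes of known function. The plot of members, for the 30 lists with more than 2 members tested, shows the interferon-stimulated genes far to the right, MHC class I and chemokines next, collagens to the left, and the Hox genes and mesenchyme patterning factors drawn out to both sides. Genes of S phase, mitosis, the cytosolic ribosome and cholesterol synthesis stayed in a narrow band.

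**Figure D1:**
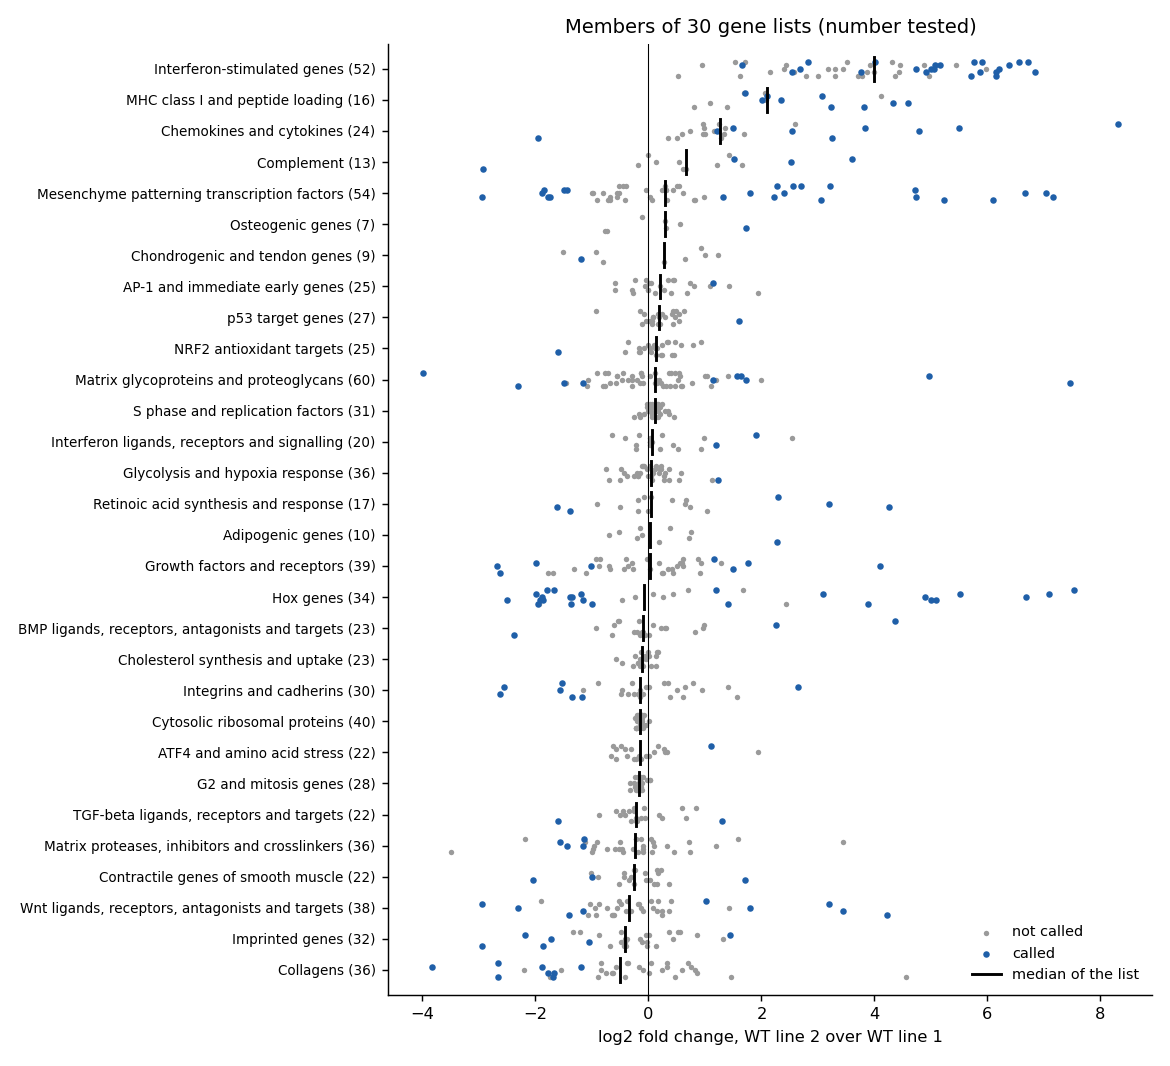
Each point is a tested member of a gene list, placed by its log2 fold change of WT line 2 over WT line 1 (horizontal axis), with called members in blue and the list median as a black bar; lists are ordered by their median and the number tested is in brackets. The interferon-stimulated list has a median of 3.999, the collagens -0.50, and all autosomal genes 0.02.

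Hox genes differed in both directions. Of 39 Hox genes, 34 were tested, and 11 were called higher and 14 lower in line 2. That was 73.5% of the tested genes, against 6.7% of all autosomal genes. The division followed position in the clusters: among paralog groups 9 to 13, 10 of 13 tested genes were higher and 1 was lower, and among groups 1 to 8, 1 of 21 was higher and 13 were lower. All 3 line 2 libraries lay above all 3 line 1 libraries for 13 Hox genes (15.1% of all autosomal genes did so), and below them for 16. The 5 untested genes, Hoxb1, Hoxb13, Hoxc11, Hoxc12 and Hoxd1, had 0 to 13 counts over line 1 and 4 to 16 over line 2.

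**Figure D2:**
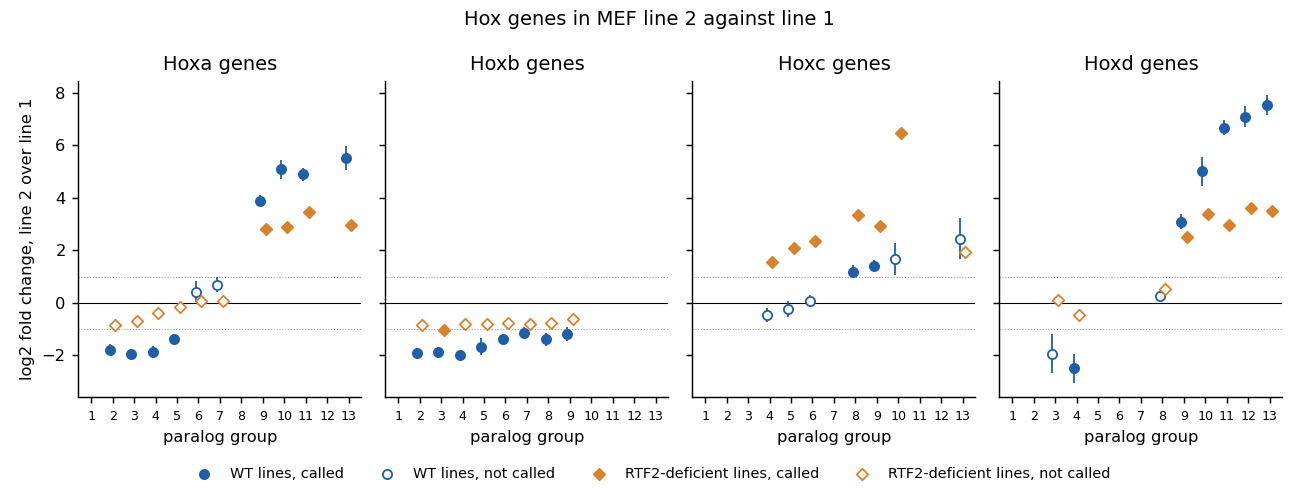
Each panel is a Hox cluster, with the paralog group on the horizontal axis and the log2 fold change of line 2 over line 1 on the vertical axis; circles are WT lines with SE bars, diamonds RTF2-deficient lines, filled where called, and not every tested gene is drawn. In WT lines the Hoxa and Hoxd genes of groups 9 to 13 lie between 3.09 and 7.53 and all 8 Hoxb genes between -1.99 and -1.16.

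The 5′ end of the Hoxd cluster on chromosome 2 held large differences. Hoxd13, the last gene of the cluster and a digit patterning factor (chr2:74668225-74671603 in GRCm38), was at 0.334, 0.669 and 1.18 CPM in line 1 and 138, 138 and 129.8 CPM in line 2, with a log2 fold change of 7.53 ± 0.37 (adjusted p = 6.39e-07). The line 2 libraries lay close together, far above those of line 1. Hoxd12 was at 0.0239, 0.149 and 0.0482 CPM in line 1 and 11.9, 11.6 and 7.46 CPM in line 2 (log2 fold change 7.09 ± 0.41, adjusted p = 1.97e-06) and Hoxd11 at 0.143, 0.124 and 0.241 CPM in line 1 and 18.4, 18.4 and 16.2 CPM in line 2 (log2 fold change 6.68 ± 0.28, adjusted p = 2.91e-07). The groups did not overlap for any of these genes. Hoxd10 and Hoxd9 followed with 5.01 ± 0.56 (adjusted p = 0.000193) and 3.09 ± 0.28 (adjusted p = 5.41e-05). Hoxd10 and Hoxd11 overlap each other in the annotation and use of strand in counting was not stated, so reads in the shared stretch could belong to either. Evx2, the homeobox gene just beyond Hoxd13 (chr2:74652989-74661520), was looked at after its values were seen: it had 2 counts over the line 1 libraries and 482 over line 2, a ratio of 223 with a 95% counting interval of 61.4 to 1846. At the other end of the cluster Hoxd4 went the other way, at 0.884, 1.07 and 0.893 CPM in line 1 and 0.0434, 0.243 and 0.213 CPM in line 2 (log2 fold change -2.50 ± 0.54, adjusted p = 0.0103).

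The Hoxa cluster on chromosome 6 was divided in a like way. Hoxa13 (chr6:52258853-52260880 in GRCm38), which acts in the digits and in the urogenital tract, stood at 0.191, 0.149 and 0.169 CPM in line 1 and 9.49, 7.61 and 6.61 CPM in line 2, a log2 fold change of 5.52 ± 0.47 (adjusted p = 3.41e-05). Hoxa11, which patterns the middle segment of the limb, was at 0.43, 0.768 and 0.82 CPM in line 1 and 22.1, 20.6 and 17.4 CPM in line 2 (log2 fold change 4.89 ± 0.26, adjusted p = 1.1e-06). For both genes line 2 was high and line 1 low in each of their libraries. Hoxa10 and Hoxa9 were higher by 5.09 ± 0.37 and 3.89 ± 0.22. The antisense transcript Hoxa11os, chosen after its values were seen, differed by 5.36 ± 0.37, and since it overlaps Hoxa11 the reads of both cannot be assigned with certainty. Toward the 3′ end, Hoxa2, Hoxa3, Hoxa4 and Hoxa5 were lower in line 2, with log2 fold changes of -1.8 ± 0.22, -1.95 ± 0.19, -1.87 ± 0.22 and -1.36 ± 0.17. Hoxa5, a factor of the neck and anterior trunk, was at 26.8, 25.8 and 21.7 CPM in line 1 and 7.40, 11.5 and 10.04 CPM in line 2, so both lines expressed it and the line 1 libraries were all above those of line 2. Hoxa6 and Hoxa7, between both ends of the cluster, had log2 fold changes of 0.43 ± 0.41 and 0.69 ± 0.29 and were not called. The spans of Hoxa3, Hoxa4 and Hoxa5 overlap in the annotation.

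All 8 Hoxb genes tested, Hoxb2 to Hoxb9, were lower in line 2, with log2 fold changes of -1.99 to -1.16. Hoxb4, the lowest of them, was at 9.39, 7.93 and 6.68 CPM in line 1 and 1.8, 2.32 and 1.94 CPM in line 2 (log2 fold change -1.99 ± 0.19, adjusted p = 7.66e-05), and Hoxb9, the only called gene of groups 9 to 13 to be lower, was at 70.0, 72.1 and 54.4 CPM in line 1 and 17.9, 38.3 and 29.9 CPM in line 2 (log2 fold change -1.19 ± 0.27, adjusted p = 0.0125). Hoxb2, Hoxb3, Hoxb5, Hoxb6, Hoxb7 and Hoxb8 differed by -1.91 ± 0.21, -1.88 ± 0.20, -1.67 ± 0.32, -1.38 ± 0.19, -1.16 ± 0.22 and -1.39 ± 0.25. Hoxb7 and Hoxb9 were not called without replicate 1 of line 2. Every tested gene of the cluster was read in both lines.

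Of the Hoxc genes, Hoxc8 (log2 fold change 1.19 ± 0.26, adjusted p = 0.0103) and Hoxc9 (log2 fold change 1.41 ± 0.21, adjusted p = 0.00123) were called of 7 tested, both higher in line 2. Hoxc8 was at 5.95, 3.44 and 3.33 CPM in line 1 and 6.97, 11.2 and 10.9 CPM in line 2, and it was not called without replicate 2 of line 1 or with the 6 WT libraries alone. Hoxc13 differed by 2.44 ± 0.78 (adjusted p = 0.0543), which was not called. Hoxc10 differed by 1.68 ± 0.60 (adjusted p = 0.0888) and was not called either, though Hoxc10 was called at adjusted p = 0.0054 when replicate numbers entered as a block among the 6 WT libraries. The count of Hox genes called higher stayed at 9 to 13 and that of lower at 6 to 14 over all alternatives, the lowest of both with a test against a 2-fold change.

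Factors that mark body regions and limb type differed too. Of 54 mesenchyme patterning transcription factors tested, 16 were called higher in line 2 and 7 lower. That was 42.6% of them, against 6.7% of all autosomal genes. The higher ones included the hind limb factors Tbx4 and Pitx1, the dorsal limb factor Lmx1b and, with them, the fore limb factor Tbx5, so that the higher members do not belong to a single limb type. The lower ones included Zic1, Zic4, Alx4 and Six2.

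Tbx4, the T-box factor of hind limb and lung mesenchyme (chr11:85886367-85916097), was at 0.167, 0.124 and 0.145 CPM in line 1 and 15.4, 15.5 and 14.3 CPM in line 2, with a log2 fold change of 6.67 ± 0.22 (adjusted p = 3.51e-08). Pitx1, which specifies hind limb identity (chr13:55825044-55836190), was at 0, 0.149 and 0.145 CPM in line 1 and 6.15, 8.03 and 6.33 CPM in line 2 (log2 fold change 6.09 ± 0.49, adjusted p = 2.25e-05). Both were near the floor of detection in line 1 and evenly expressed over the line 2 libraries. Lmx1b, needed for the dorsal side of the limb, had 1 count over the line 1 libraries and 192 over those of line 2, a ratio of 178 with a 95% counting interval of 31.5 to 7049. The lncRNA gene C130021I20Rik, which lies at the start of Lmx1b (chr2:33641193-33645663) and overlaps it by a few bases, was at 0.0239, 0.0495 and 0.0724 CPM in line 1 and 8.69, 8.2 and 7.44 CPM in line 2 (log2 fold change 7.30 ± 0.39, adjusted p = 1.05e-06). The pair was thus almost unread in line 1 and present in every line 2 library.

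Tbx5, the fore limb and heart T-box factor, was at 0.239, 0.495 and 0.82 CPM in line 1 and 16.6, 12.4 and 12.2 CPM in line 2 (log2 fold change 4.72 ± 0.39, adjusted p = 2.78e-05). Hand2, which sets the posterior side of the limb bud, was at 0.0955, 0.124 and 0.217 CPM in line 1 and 3.60, 4.21 and 4.11 CPM in line 2 (log2 fold change 4.74 ± 0.56, adjusted p = 0.000254). Shox2, a factor of the upper limb segment, was at 0.119, 0.297 and 0.314 CPM in line 1 and 0.89, 1.83 and 1.61 CPM in line 2 (log2 fold change 2.55 ± 0.37, adjusted p = 0.000931). Neither overlapped between lines. Wt1, the factor of kidney and body cavity mesothelium, had no count in line 1 and 56 over line 2, which made it at least 17.3-fold higher in line 2 (against a floor of 3 counts over the group). Lhx8, a factor of jaw and palate mesenchyme, had 1 count in line 1 and 55 in line 2, a ratio of 50.9 (95% counting interval 8.76 to 2045). The remaining higher members, named after their values were seen, were Lhx2, Msx1, Meox2, Barx1, Gata4, Osr2, En1 and Tbx3, with log2 fold changes of 3.21, 3.05, 2.70, 2.40, 2.27, 2.23, 1.81 and 1.33. Osr2 (adjusted p = 0.0456) was not called when any WT library other than replicate 3 of line 1 was left out, without a filter, with the 6 WT libraries alone, or with the replicate block among them (adjusted p = 0.0588).

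Among the lower factors Zic1, a zinc finger factor of the dorsal neural tube and dorsal somite derivatives, was at 29.7, 28.1 and 29.0 CPM in line 1 and 5.65, 9.35 and 8.5 CPM in line 2 (log2 fold change -1.89 ± 0.18, adjusted p = 6.64e-05). Its neighbour Zic4 differed by -1.84 ± 0.27. For both the line 1 libraries lay above those of line 2. Alx4, Six2, Nr2f1 and Irx5 were lower, at -1.74 ± 0.43, -1.77 ± 0.22, -1.49 ± 0.27 and -1.44 ± 0.12, and Alx4 was not called without replicate 2 or 3 of line 1 or replicate 1 or 2 of line 2. The broadly expressed limb and trunk mesenchyme factors Prrx1 and Tbx15, those of highest mean CPM in the list, had log2 fold changes of 0.60 ± 0.11 and 0.30 ± 0.17 and were not called. Counts for the list were 10 to 17 higher and 5 to 9 lower over all alternatives.

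Interferon-stimulated genes were higher in line 2, but with a wide spread between libraries of a line. The list had 52 tested members, 23 called higher and none lower (none lower at an unadjusted p under 0.05 or by DESeq2 or limma voom), with a median log2 fold change of 3.999 against 0.02 over all autosomal genes, and 38 of the 52 had all 3 line 2 libraries above all 3 of line 1. Over all autosomal genes 3.85% were called higher, and 15.1% had all 3 line 2 libraries above all 3 of line 1. The median log2 CPM of the list was 3.67, 0.99 and 1.47 in the line 1 libraries and 7.65, 4.34 and 5.87 in those of line 2, each in the order of replicates 1 to 3. Replicate 1 was thus the highest library of both lines, and replicate 2 of line 2 was close to replicate 1 of line 1. The count of calls moved with the libraries used: it was 7, 0 and 2 without replicates 1, 2 and 3 of line 1, and 2, 39 and 17 without those of line 2. Same-numbered WT libraries deviated together, and with the replicate number as a block among the 6 WT libraries 46 members were called higher (4.9% of all genes were in that fit), while the block over all 12 libraries called 23. DESeq2 called 47 and limma voom 3, and the 6 WT libraries alone gave 14.

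Antiviral effectors were among the genes called higher. Rsad2, which encodes viperin, an enzyme that makes a chain-terminating nucleotide, was at 1.55, 0.396 and 0.603 CPM in line 1 and 236, 6.37 and 29.7 CPM in line 2 (log2 fold change 6.72 ± 1.69, adjusted p = 0.0229). Oasl1, of the oligoadenylate synthetase-like proteins, was at 1.6, 0.52 and 0.868 CPM in line 1 and 232, 9.15 and 43.1 CPM in line 2 (log2 fold change 6.56 ± 1.45, adjusted p = 0.0119). Within line 2 the highest library was many times the lowest for both, and the groups still did not overlap. Oas3, a synthetase that senses double-stranded RNA, was at 0.382, 0.0743 and 0.434 CPM in line 1 and 65.2, 0.992 and 9.21 CPM in line 2 (log2 fold change 6.38 ± 1.75, adjusted p = 0.0334), and Iigp1, an immunity-related GTPase, at 1.29, 0.149 and 1.13 CPM in line 1 and 173, 2.71 and 16.2 CPM in line 2 (log2 fold change 6.21 ± 1.86, adjusted p = 0.0482). Oas1g was at 0.31, 0 and 0.0724 CPM in line 1 and 40.3, 0.75 and 4.01 CPM in line 2 (log2 fold change 6.83 ± 1.96, adjusted p = 0.0398), but reads of the Oas1 paralogs could be divided among near-identical copies, as could those of Ifit3 and Ifit3b. Ifit1, Ifit2, Ifit3 and Ifit3b, RNA-binding proteins, had log2 fold changes of 4.74, 1.65, 5.90 and 5.70. The RNA and Z nucleic acid sensors Ifih1 and Zbp1 were higher by 3.77 ± 0.86 and 6.15 ± 1.75. Mx1 and Mx2, dynamin-like GTPases, were higher by 5.07 ± 1.48 and 5.76 ± 1.74, and Mx1 was not called under the replicate block over all 12 libraries (adjusted p = 0.103) or among the 6 WT libraries (adjusted p = 0.0651). Irgm1, an immunity-related GTPase and the member of highest mean CPM, was at 269.8, 243 and 213 CPM in line 1 and 654, 144 and 245 CPM in line 2 (log2 fold change 0.52 ± 0.47, adjusted p = 0.524), was not called and had groups that overlapped. Lgals3bp, the next by CPM, was at 85.0, 14.4 and 17.1 CPM in line 1 and 831, 130.3 and 307 CPM in line 2 (log2 fold change 3.44 ± 1.17, adjusted p = 0.0752) and was called by DESeq2 (adjusted p = 0.0253) and under the block among the WT libraries (adjusted p = 0.000229). None of these called genes was called without replicate 2 of line 1, and of them Oasl1 and Ifih1 were called without replicate 1 of line 2.

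**Figure D3:**
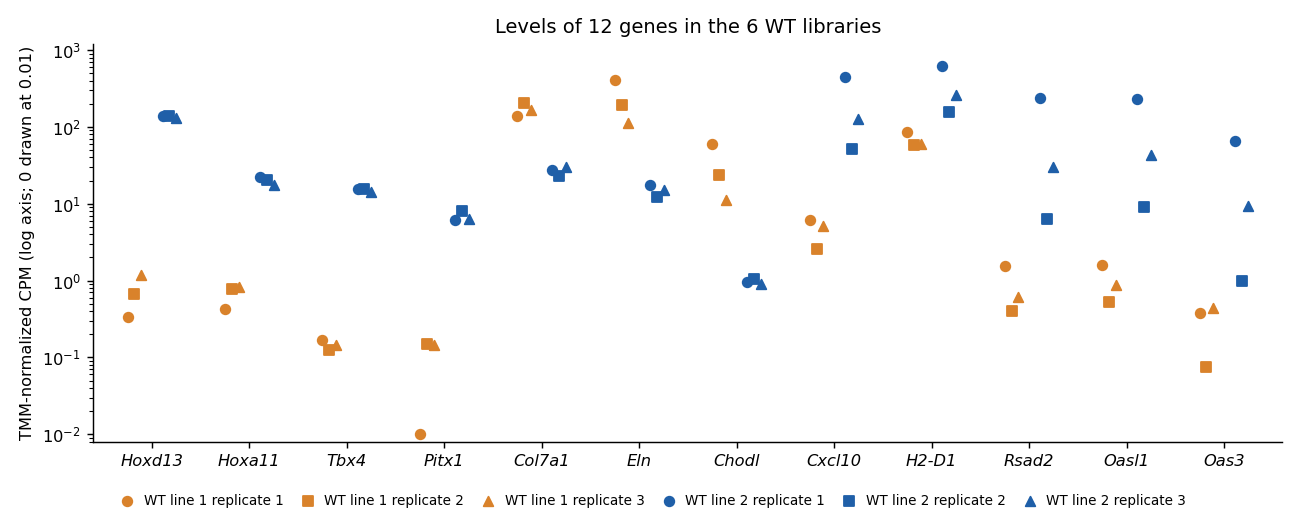
TMM-normalized CPM (log axis, 0 drawn at 0.01) of 12 genes in each WT library, line 1 in orange and line 2 in blue, with symbols for replicates 1 to 3. Replicates of Hoxd13, Hoxa11, Tbx4 and Pitx1 lie close together within line 2, while those of Rsad2, Oasl1 and Oas3 are widely spread, with replicate 1 highest.

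Many promoters of these genes carried the letters of the interferon-stimulated response element. The element was searched as GAAA, any 2 bases and GAAA on either strand, from 250 bases before to 50 after each RefSeq transcription start (GRCm38.p6). It occurred in 22 of 39 promoters of the list (56.4%) and in 9 of the 16 of its called members with a promoter (56.2%), against 400 of 10831 over all autosomal genes tested (3.69%). Among all genes called higher 40 of 379 had it (10.6%), 31 of 363 without the list (8.54%), and among genes called lower 8 of 263 (3.04%). The AP-1 letters TGANTCA, searched as a second motif, were in 6.46% of all these promoters, 11.9% of those called higher and 7.6% of those called lower, and in 9 of the 39 of the interferon-stimulated list (23.1%) and 4 of the 16 of its called members (25.0%). To show the element at the genes with the steepest differences, 30 bases around it are given for 6 of the 7 called members that had it upstream of the start, those of largest log2 fold change, from RefSeq GRCm38.p6, 5′ to 3′ on the gene's strand, the element in capitals.
Rsad2 (chr12:26456553-26456582, minus strand): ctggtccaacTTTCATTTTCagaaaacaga
Oas3 (chr5:120777715-120777744, minus strand): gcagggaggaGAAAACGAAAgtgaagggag
Oas1a (chr5:120907526-120907555, minus strand): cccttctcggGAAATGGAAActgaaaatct
Ifit1 (chr19:34640794-34640823, plus strand): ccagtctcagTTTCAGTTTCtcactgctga
Ifit3 (chr19:34583397-34583426, plus strand): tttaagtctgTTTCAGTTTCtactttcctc
Ifit3b (chr19:34607793-34607822, plus strand): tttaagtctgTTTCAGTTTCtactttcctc
Capitals that begin with TTTC are the element read from the other strand. The distance from the element to the start was 110 bases for Rsad2, 65 for Oas3, 10 for Oas1a, 75 for Ifit1, 112 for Ifit3 and 144 for Ifit3b, and the windows of Ifit3 and Ifit3b were identical. A match is a description of the letters and was not tested as a binding site.

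MHC class I genes and the proteasome and transporter subunits that supply them with peptide went the same way. Of 16 tested, 9 were called higher and none lower (none at an unadjusted p under 0.05 or by the other tools), with a median of 2.09, and 14 had groups that did not overlap, higher in line 2 (3.85% of all autosomal genes were called higher and 15.1% had such groups). H2-D1, a classical class I heavy chain, was at 86.9, 58.5 and 60.4 CPM in line 1 and 625, 155 and 264 CPM in line 2 (log2 fold change 2.34 ± 0.52, adjusted p = 0.0127), and H2-K1 differed by 3.06 ± 0.77. Psmb9, an immunoproteasome subunit, was at 0.502, 0.272 and 0.121 CPM in line 1 and 14.1, 1.08 and 2.999 CPM in line 2 (log2 fold change 4.33 ± 1.16, adjusted p = 0.0307), with Psmb8 and Psmb10 at 3.81 ± 1.11 and 1.72 ± 0.47, and the peptide transporter gene Tap2 at 2.11 ± 0.57. B2m, the light chain, was at 467, 328 and 330.3 CPM in line 1 and 1698, 487 and 751 CPM in line 2 (log2 fold change 1.38 ± 0.46, adjusted p = 0.0709) and was called without replicate 2 of line 2 (adjusted p = 0.028) and under the replicate block among the WT libraries (adjusted p = 0.0151). The number called was 15 with the block among the WT libraries and 8 with that over all 12 libraries, and 4, 0 and 1 without replicates 1, 2 and 3 of line 1, and 1 and 15 without replicates 1 and 2 of line 2. H2-D1 was the 1 gene still called without replicate 3 of line 1 or replicate 1 of line 2. The nonclassical genes H2-Q7 and H2-Q4 were higher by 4.60 ± 1.16 and 3.23 ± 0.76, and H2-Q8 had 1 count in line 1 and 822 in line 2, of which 763 were in replicate 1, a ratio of 760.1 (95% counting interval 136 to 30059.8). H2-Q8 was not called when any one library of line 1 or replicate 1 of line 2 was left out. Reads of the H2-Q genes could be divided among near-identical copies.

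Several chemokines were higher in line 2 too. Of 24 chemokine and cytokine genes tested, 8 were called higher and 1 lower, with a median of 1.27. That was 37.5% of them, against 6.7% of all autosomal genes. Cxcl10, a chemokine for T cells, was at 6.21, 2.58 and 5.19 CPM in line 1 and 449.6, 51.6 and 128 CPM in line 2 (log2 fold change 5.49 ± 1.02, adjusted p = 0.00457), and every line 2 library was above every line 1 library. Cxcl10 and Cxcl11 lie within the span of Art3. Cxcl11 had 1 count in line 1 and 480 in line 2, a ratio of 444 (95% counting interval 79.3 to 17568). RefSeq gives it as a transcribed pseudogene, and DESeq2 gave it no adjusted p. Of the 480 counts 456 were in replicate 1, with 9 and 15 in replicates 2 and 3, and Cxcl11 was not called without that library or without any one library of line 1. Ccl5, Ccl7 and Ccl2, the last a monocyte chemokine, were higher by 4.80 ± 1.10, 3.83 ± 0.66 and 3.25 ± 0.53, and Ccl5 was not called without replicate 2 or 3 of line 1. Cxcl12, a chemokine constitutively made by mesenchymal cells, went the other way, at 2298, 1524 and 1319.7 CPM in line 1 and 295, 524 and 503 CPM in line 2 (log2 fold change -1.96 ± 0.34, adjusted p = 0.00329). The number called higher was 5 without replicate 1 of line 1, 4 without replicate 2 of line 1, 5 without replicate 1 of line 2, and 5 with the block among the WT libraries (8 with that over all 12). Among 13 complement genes 1 was lower, and C2, Cd55 and Cd59a were higher (3.60 ± 0.89, 2.52 ± 0.30 and 1.51 ± 0.29). C2 was not called without replicate 1 or 2 of line 1 or replicate 1 of line 2.

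Of 20 interferon ligand, receptor and signalling genes tested, 2 were called higher (3.85% of all autosomal genes were), and 1 of the 2 was Sting1 (1.19 ± 0.14), the adaptor of cytosolic DNA sensing. The kinase Jak1 and the factor Stat3, the members of highest mean CPM, had log2 fold changes of 0.20 ± 0.07 and -0.22 ± 0.10 and were not called. Ifnb1, which encodes interferon beta, was too low to be tested, with 0 counts over the line 1 libraries and 75 over those of line 2, where it ranged from 0 to 1.498 CPM. Leaving out 1 library gave 1 call without replicate 1 or 2 of line 1 and 4 without replicate 2 of line 2.

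**Figure D4:**
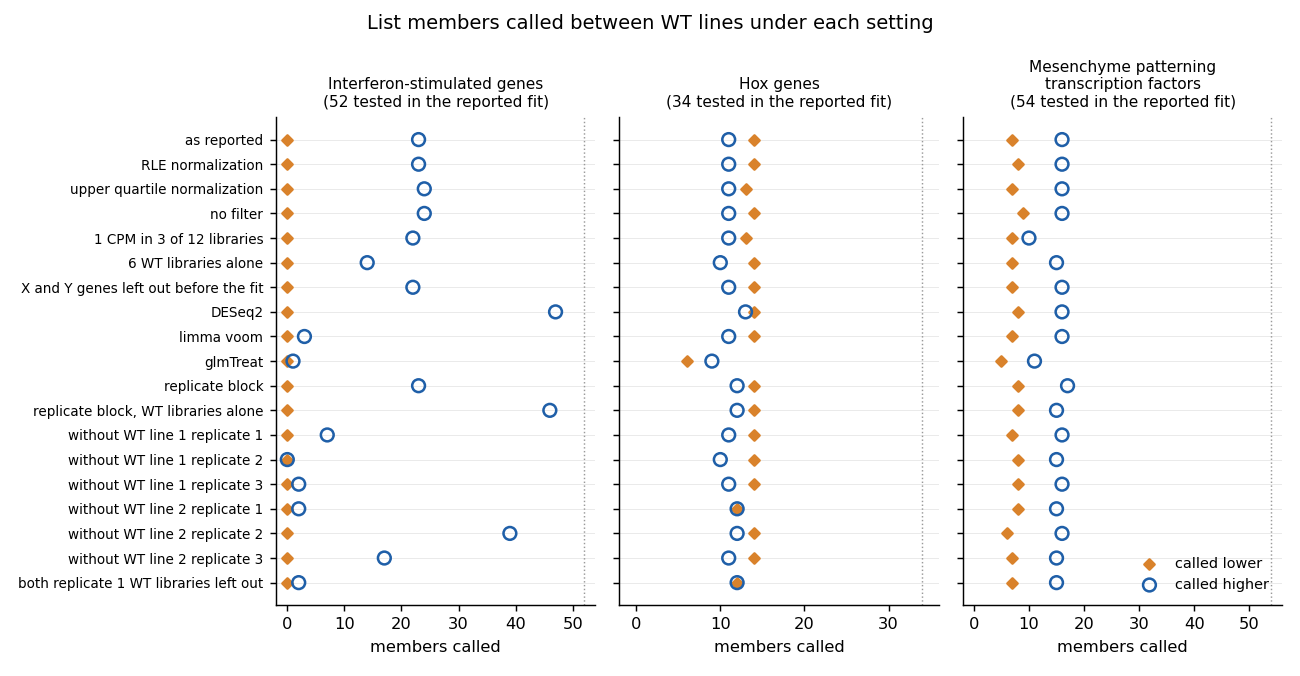
Number of list members called higher (open circles) and lower (diamonds) in WT line 2 for 3 gene lists (panels) under each processing setting (rows), the dotted line marking the members tested in the reported fit. The interferon-stimulated genes range from 0 to 47 called higher, while Hox genes range from 9 to 13 and the mesenchyme factors from 10 to 17.

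Line 1 had more of several matrix transcripts. Over all autosomal genes 2.85% were called lower in line 2 and 3.85% higher. Of 36 collagen genes tested, 8 were called lower in line 2 and none higher (5 higher at an unadjusted p under 0.05, 1 called by DESeq2 and none by limma voom), with a median of -0.50. Col7a1, the anchoring fibril collagen, was at 139, 205 and 164 CPM in line 1 and 27.1, 23.2 and 30.4 CPM in line 2 (log2 fold change -2.66 ± 0.19, adjusted p = 1.03e-05). Col9a1, a cartilage collagen, differed by -3.83 ± 0.63, Col19a1 by -2.66 ± 0.53, and Col4a4, Col11a1, Col15a1, Col8a1 and Col2a1 by -1.89, -1.78, -1.68, -1.67 and -1.20. The main fibrillar genes Col1a1 and Col1a2 had log2 fold changes of -0.42 ± 0.20 and -0.63 ± 0.17 and were not called. Of 36 matrix proteases, inhibitors and crosslinkers 4 were lower and none higher (3 higher at an unadjusted p under 0.05, 2 called by DESeq2 and none by limma voom): Loxl2, a collagen crosslinking oxidase (-1.56 ± 0.18), and the proteases Adamts12 (-1.45 ± 0.23), Adamts5 (-1.15 ± 0.28) and Adamts20 (-1.13 ± 0.25, adjusted p = 0.0508 with the block among the WT libraries). Their number was 2 without replicate 1 of line 2. Adamts5 was not called without replicate 1 or 2 of line 1 or replicate 1 or 3 of line 2, Adamts20 without replicate 1 of either line, and Col4a4 without replicate 1 of line 1 or replicate 2 or 3 of line 2.

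Among 60 matrix glycoproteins and proteoglycans 6 were higher and 4 lower. That was 16.7% of them, against 6.7% of all autosomal genes. Eln, which encodes elastin, was at 404, 192 and 111 CPM in line 1 and 17.3, 12.2 and 15.1 CPM in line 2 (log2 fold change -3.99 ± 0.63, adjusted p = 0.00186), and the line 1 libraries were all above the line 2 libraries. Thbs4, a thrombospondin of tendon and muscle matrix, was at 0.239, 0 and 0.0482 CPM in line 1 and 23.7, 4.19 and 24.9 CPM in line 2 (log2 fold change 7.46 ± 1.70, adjusted p = 0.0134). Its replicate 2 of line 2 was well below the other line 2 libraries, yet above all of line 1. It was not called without replicate 2 or replicate 3 of line 1. Hapln1, the link protein that fastens proteoglycans to hyaluronan, was at 0.0239, 0.0743 and 0.0965 CPM in line 1 and 1.82, 1.98 and 2.50 CPM in line 2 (log2 fold change 4.96 ± 0.40, adjusted p = 2.36e-05). Lama1, a basement membrane laminin chain, was lower, at -2.31 ± 0.42, and Spp1, osteopontin, was higher by 1.72 ± 0.34. The number higher was 3 without replicate 2 of line 1 and 3 without replicate 3.

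Other genes with large lower values were spread over several lists or none. Chodl, a transmembrane lectin, was at 59.3, 23.9 and 11.3 CPM in line 1 and 0.955, 1.04 and 0.897 CPM in line 2 (log2 fold change -5.03 ± 0.81, adjusted p = 0.00207). Pappa2, a protease that cleaves IGF binding proteins, was at 52.5, 11.7 and 14.98 CPM in line 1 and 1.69, 1.26 and 1.89 CPM in line 2 (log2 fold change -4.03 ± 0.82, adjusted p = 0.00785). Every line 2 library was below every line 1 library for both. Pou3f3, a POU factor of brain and kidney, was at 27.2, 31.4 and 31.4 CPM in line 1 and 1.19, 3.68 and 3.45 CPM in line 2 (log2 fold change -3.44 ± 0.34, adjusted p = 8.02e-05). Gper1, a membrane estrogen receptor, differed by -3.72 ± 0.40, Krt7, a keratin of simple epithelia, by -3.70 ± 0.64, and Ptprz1, a receptor phosphatase, by -3.43 ± 0.31. Vit, Pcsk5 and Dner, a matrix protein, a proprotein convertase and a Notch ligand, were lower, at -3.35 ± 0.20, -3.32 ± 0.55 and -3.27 ± 0.46, with Nkain4 and D630003M21Rik at -3.82 ± 0.8 and -3.28 ± 0.51.

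Secreted signals differed gene by gene. Called genes were 23.7%, 13% and 20.5% of the Wnt, BMP and growth factor lists, against 6.7% of all autosomal genes. Of 38 Wnt pathway genes 5 were higher and 4 lower. Wnt10a was at 0.669, 0.396 and 0.651 CPM in line 1 and 5.49, 5.98 and 7.39 CPM in line 2 (log2 fold change 3.45 ± 0.31, adjusted p = 5.22e-05), and the Wnt antagonist Dkk2 was higher by 3.19 ± 0.29, while Sfrp4, a secreted Frizzled-like antagonist, was at 5.21, 5.47 and 6.56 CPM in line 1 and 0.912, 0.595 and 0.732 CPM in line 2 (log2 fold change -2.94 ± 0.26, adjusted p = 4.5e-05). Wnt7b had 1 count in line 1 and 27 in line 2, a ratio of 25.0 (95% counting interval 4.12 to 1022). Of 23 BMP pathway genes Gdf6 and Gdf5, ligands of joint formation, were higher (4.37 ± 0.61 and 2.26 ± 0.47) and Bmp5 was lower (-2.37 ± 0.67), the last not called without replicate 2 or 3 of line 1 or replicate 1 or 3 of line 2. Of 39 growth factors and receptors 4 were higher and 4 lower. Fgf5, a secreted fibroblast growth factor, was higher by 4.10 ± 0.45. Igfbp2 and Igfbp5, carriers of insulin-like growth factors, were lower: Igfbp2 was at 1559, 595 and 576 CPM in line 1 and 132, 145 and 149 CPM in line 2 (log2 fold change -2.68 ± 0.53, adjusted p = 0.00648), and Igfbp5 differed by -2.63 ± 0.40. Without replicate 2 of line 1, replicate 3 of line 1 or replicate 1 of line 2 the number higher was 1, 2 and 2. The number lower was 2 without replicate 1 of line 1 or replicate 2 of line 2, and 7 without replicate 3 of line 1 or with the block among the WT libraries (4 with that over all 12).

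Of 17 retinoic acid genes, Cyp26c1, a retinoic acid degrading enzyme (4.26 ± 1.25), Rbp4, the retinol carrier (3.20 ± 0.91), and Crabp2, which delivers retinoic acid to its receptor (2.28 ± 0.19), were higher, and 2 were lower, among them Cyp26b1 (-1.39 ± 0.27). Crabp2 was at 9.77, 9.07 and 8.76 CPM in line 1 and 35.5, 61.1 and 37.9 CPM in line 2. The number higher was 1 without replicate 2 or 3 of line 1 or replicate 1 or 3 of line 2, when Crabp2 was left, and Rbp4 was not called without replicate 1 of line 1 either. Of 22 TGF-beta pathway genes 2 were called, where 6.7% of all autosomal genes were: the coreceptor Tgfbr3 was higher (1.29 ± 0.12) and the ligand Tgfb2 lower (-1.6 ± 0.36), the lower count being 2 without replicate 3 of line 1 and 0 without replicate 1 of line 2.

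Of 32 imprinted genes 1 was higher and 5 lower. The share called over all autosomal genes, for comparison with each list in this paragraph, was 6.7%. Mest, a paternally expressed gene of mesoderm, was at 53.95, 45.9 and 42.2 CPM in line 1 and 8.79, 18.9 and 11.4 CPM in line 2 (log2 fold change -1.86 ± 0.25, adjusted p = 0.000647). The neighbours Peg3, Usp29 and Zim1 on chromosome 7, of which Peg3 encodes a zinc finger protein, were lower, at -1.72 ± 0.43, -2.18 ± 0.42 and -2.95 ± 0.42, and Asb4 at -1.04 ± 0.25, while Plagl1 was higher by 1.44 ± 0.23. Peg3 was not called when any WT library other than replicate 3 of line 1 was left out, nor by limma voom. The number lower was 3 without replicate 2 of line 1 or replicate 1 of line 2. Of 30 integrins and cadherins, 1 was higher (Itgb7, 2.64 ± 0.31) and 6 lower, among them the mesenchymal cadherin Cdh11, at 418, 301 and 334 CPM in line 1 and 108, 113 and 134 CPM in line 2 (log2 fold change -1.57 ± 0.16, adjusted p = 9.92e-05), Cdh10 (-2.63 ± 0.26) and the collagen receptor Itga2 (-2.55 ± 0.58). Of 22 contractile genes, Mylk, the myosin light chain kinase, was higher (1.71 ± 0.23), and Actg2 and Myocd, a smooth muscle actin and the smooth muscle coactivator, were lower (-2.03 ± 0.30 and -1.01 ± 0.19). Of these 2 lower genes 1 was left without replicate 3 of line 1 or replicate 2 of line 2.

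Few genes of proliferation and basic metabolism were called. None of 31 S phase, 28 G2 and mitosis, 40 cytosolic ribosomal protein and 23 cholesterol genes was called by edgeR, DESeq2 or limma voom. At an unadjusted p under 0.05, edgeR had 10 S phase genes higher and 1 lower, 1 mitosis gene lower, 1 cholesterol gene lower and no ribosomal protein gene in either direction. All 3 line 2 libraries lay above all 3 of line 1 for 13 S phase genes (15.1% of all autosomal genes did so) and below them for 1. No mitosis, ribosomal protein or cholesterol gene had such separate groups. Mcm6, a helicase subunit, and Top2a, the mitotic topoisomerase, had log2 fold changes of 0.35 ± 0.14 and -0.10 ± 0.12. Single members were called among 36 glycolysis and hypoxia genes (Car9, 1.23 ± 0.23), 27 p53 targets (Perp, 1.61 ± 0.42), 25 NRF2 targets (Aox1, -1.6 ± 0.26), 22 ATF4 targets (Stc2, 1.10 ± 0.25), 25 AP-1 and immediate early genes (Fosl1, 1.15 ± 0.33), 10 adipogenic genes (Fabp4, 2.28 ± 0.28), 7 osteogenic genes (Spp1, above) and 9 chondrogenic and tendon genes (Col2a1, above). That was 2.78% to 4.55% of each list from glycolysis to AP-1, against 6.7% of all autosomal genes. For the adipogenic, osteogenic and chondrogenic lists it was 10%, 14.3% and 11.1%, each from 1 gene. Perp lost its call without replicate 2 or 3 of line 1 or replicate 1 or 3 of line 2, Stc2 without replicate 2 of line 1 or replicate 3 of line 2, and Fosl1 without any one of replicates 1 and 2 of line 1 and 1 and 3 of line 2. Without replicate 2 of line 2 there were 4 AP-1 and 2 ATF4 calls, and without replicate 1 of line 1 there were 2 adipogenic calls. Neither of 2 proliferin genes tested was called by edgeR, DESeq2 or limma voom or had an unadjusted p under 0.05.

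Markers of other cell types moved with some of these groups. By comparison, 6.7% of all autosomal genes were called. Of 10 macrophage and leukocyte markers 4 were tested and Cd68, a lysosomal protein, was called higher (log2 fold change 2.01 ± 0.22, adjusted p = 0.000159). The summed level of all 10 was 2.63 to 4.01 CPM in line 1 and 7.36 to 10.2 CPM in line 2. Cd68 had 206 counts over line 1 and 903 over line 2. Csf1r, Lyz2 and Itgam, tested but not called, had 159, 16 and 17 counts over line 1 and 119, 50 and 40 over line 2. The defining genes Ptprc, Adgre1, Tyrobp and Spi1 had 1 to 8 counts over line 1 and 3 to 14 over line 2. Of 10 skeletal muscle markers 3 were tested and 2 were lower in line 2, Chrna1, an acetylcholine receptor subunit (-2.57 ± 0.34), and Myod1, the myogenic factor, with 142 counts in line 1 and 2 in line 2, of which 122 were in replicate 1 of line 1. The summed level of all 10 muscle markers was 5.15 to 9.82 CPM in line 1 and 1.08 to 1.89 CPM in line 2. Among the untested ones, Myf6 and Ckm had no count in either line, and Myf5 and Pax7 had 1 or 2 counts over a line. Myog, Myh3 and Mymk had 28, 25 and 4 counts in line 1 and 11, 2 and 0 in line 2. Of 12 neural and Schwann markers 6 were tested and Tubb3, a neuronal tubulin, was lower (-1.74 ± 0.27). Summed levels over the 11 autosomal ones were 104 to 156 CPM in line 1 and 38.7 to 75.0 CPM in line 2. The other 5 tested had log2 fold changes of -1.49 to 0.82 and were not called. Among the untested autosomal neural markers, Sox10 had 13 and 0 counts in lines 1 and 2, Elavl3 13 and 46, Foxd3 2 and 3, and Neurog2 none. Of 25 epithelial markers 17 were tested, with St14, Krt18, Pkp3 and Krt8 higher and Krt7, Lad1 and Pkp1 lower (log2 fold changes 2.07, 1.94, 1.76, 3.52, -3.70, -2.26 and -1.97), Krt8 resting on 2 counts in line 1. Krt8 was not called without any one WT library, Pkp3 without replicate 1 or 2 of line 1 or replicate 1 of line 2, St14 without replicate 2 or 3 of line 1 or replicate 1 of line 2, and Myod1 without replicate 1 of line 2. None of the tested endothelial, pericyte or erythroid markers (5, 7 and 1) was called by edgeR, and 2 endothelial, 2 pericyte and no erythroid markers had an unadjusted p under 0.05 there. What part such cells had in the line differences was not tested.

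Called genes were found on every autosome. The median log2 fold change of an autosome lay between -0.019 (chromosome 3) and 0.0451 (chromosome 17), and the share of genes called between 3.81% (chromosome 10) and 10% (chromosome 15). Nnt, the mitochondrial transhydrogenase gene in which C57BL/6J mice carry a deletion, was expressed in both lines, at 46.0, 55.6 and 47.4 CPM in line 1 and 63.5, 78.6 and 67.2 CPM in line 2 (log2 fold change 0.49 ± 0.11, adjusted p = 0.0129), and was not called.

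In the RTF2-deficient MEFs of both lines, line 2 against line 1 gave 178 calls (1.29%), 118 higher (0.858%) and 60 lower (0.436%), and the contrast shares no library with that of the WT MEFs. In both contrasts 141 genes had the same call, 105 higher and 36 lower. They were 15.3% of the genes called between WT lines and 79.2% of those called between RTF2-deficient lines. Of the 922 genes called between WT lines, 849 (92.1%) had the same sign. These genes were chosen by their size and p in WT MEFs, so sizes nearer to 0 in the other contrast follow in part from the choice and are a description: the median log2 fold change of the higher genes was 2.09 in WT and 1.01 in RTF2-deficient MEFs, and that of the lower genes -1.76 and -0.62. The difference of the line differences was itself called for 142 genes (1.03%), 125 of which were among the 922, and it was not called for 121 of the 141. That count was 66 without replicate 2 of WT line 1 and 64 without replicate 3 of WT line 2.

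**Figure D5:**
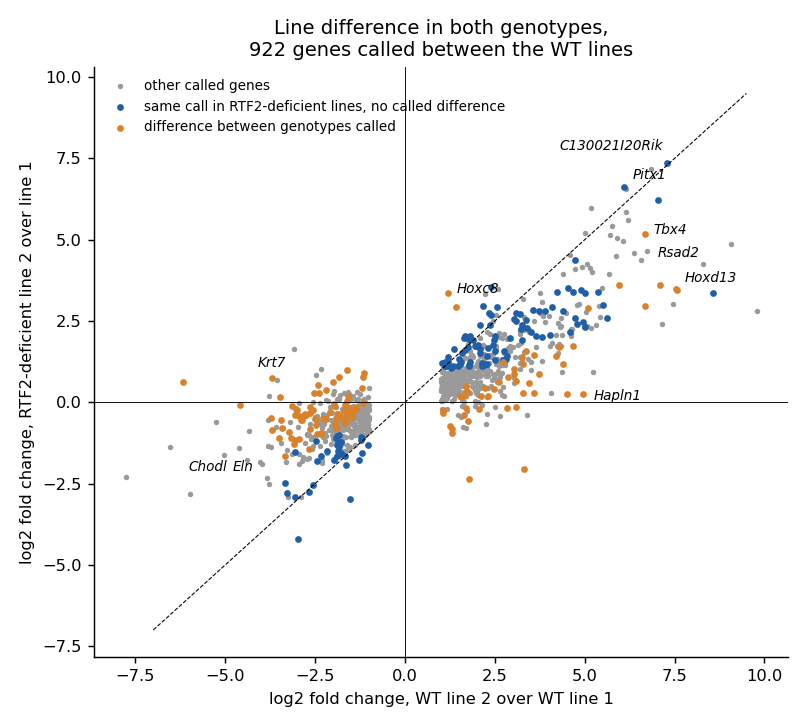
Each point is one of the 922 autosomal genes called between the WT lines, with the log2 fold change of line 2 over line 1 in WT MEFs (horizontal) and RTF2-deficient MEFs (vertical); the dashed line marks equal values. Blue points have the same call in both with no called difference, orange points a called difference between genotypes. The genes were chosen by their WT values, which by itself draws points toward 0 on the vertical axis.

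Many patterning genes were called in both genotypes. In RTF2-deficient MEFs 15 Hox genes were called higher in line 2 and 1 lower, and 12 had the same call as in WT. Hoxd13 was at 7.21, 4.98 and 4.12 CPM in RTF2-deficient line 1 and 56.7, 52.3 and 73.3 CPM in line 2, a log2 fold change of 3.48 (adjusted p = 0.000173), which was smaller than in WT by 4.05 ± 0.43 (adjusted p = 0.00193). Its higher levels again did not overlap the lower ones. The same held for Hoxd12 and Hoxd11 (difference 3.46 ± 0.54 and 3.72 ± 0.35) and Hoxa10 (2.19 ± 0.46), whereas for Hoxa13, Hoxa11, Hoxa9, Hoxd10 and Hoxd9 no difference between genotypes was called. The called Hoxc genes went the other way. Hoxc8 was at 1.39, 0.981 and 0.878 CPM in RTF2-deficient line 1 and 10.4, 11.4 and 11.5 CPM in line 2, a log2 fold change of 3.35 against 1.19 in WT (difference -2.16 ± 0.37, adjusted p = 0.0219), and Hoxc9 had 2.94 against 1.41. Hoxc4, Hoxc5, Hoxc6 and Hoxc10, named after their values were seen, were called higher in RTF2-deficient line 2 (1.56, 2.10, 2.35 and 6.46) and not in WT line 2 (-0.46, -0.23, 0.07 and 1.68). Of the Hoxb genes Hoxb3 alone was called lower in both.

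Of the mesenchyme factors 11 of 23 had the same call in both genotypes. Tbx4, Pitx1, Lmx1b, Hand2, Tbx5, Shox2, Barx1, En1 and Tbx3 were higher in RTF2-deficient line 2 as well (5.16, 6.63, 6.22, 4.38, 2.59, 2.95, 2.69, 1.25 and 1.12) and Zic1 and Zic4 lower (-1.65 and -1.61). Pitx1 was at 0.0478, 0.0736 and 0.0244 CPM in RTF2-deficient line 1 and 5.65, 4.72 and 4.93 CPM in line 2, much like its WT levels. C130021I20Rik, beside Lmx1b, had 7.37 against 7.30 in WT. Msx1 and Gata4 had 0.86 and -0.34 and were not called there, and the difference was called for Msx1 (2.18 ± 0.33).

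The interferon-stimulated genes had no call between the RTF2-deficient lines, though their median log2 fold change was 3.79. The median log2 CPM of the list was 1.89, 0.82 and 0.85 in the libraries of RTF2-deficient line 1 and 1.48, 3.09 and 6.2 in those of line 2, so that replicate 1 of line 2 lay among the line 1 libraries and replicate 3 far above. Rsad2 was at 0.884, 0.515 and 0.707 CPM and 1.28, 2.95 and 48.6 CPM. By edgeR, 37 of the 52 were higher at an unadjusted p under 0.05. No interferon-stimulated gene had a called difference between genotypes. MHC class I genes had a median of 1.14 and no call, with 4 higher at an unadjusted p under 0.05.

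Collagens had 3 calls, all lower, in the RTF2-deficient lines, with a median of -0.51 as in WT. Igfbp2 had close log2 fold changes in both genotypes (-2.68 and -2.76), as did Mylk (1.71 and 1.99) and Cd59a (1.51 and 1.33). Others were called in WT alone, with a called difference: Krt7 was at 29.998, 71.5 and 75.7 CPM in line 1 and 2.89, 6.92 and 3.8 CPM in line 2 among WT libraries and at 12.3, 51.8 and 54.5 and 92.0, 75.5 and 33.5 CPM in RTF2-deficient lines 1 and 2 (difference -4.46 ± 0.84, adjusted p = 0.0314). Hapln1 had 0.25 against 4.96 in WT. Of the 2 genes with opposite calls, Tfap2b (3.32 in WT and -2.05 in RTF2-deficient MEFs), a neural crest and kidney factor, was named after its values were seen.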

How the data were processed

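RNA-seq was made from MEFs of 2 WT and 2 RTF2-deficient lines, 3 libraries each. The authors deposited 1 table of raw counts per gene identifier, not normalized, with 1 column per library. HTSeq and mm10 are named in the notes on processing by the submitters, while the study's methods name Salmon and tximport for RNA-seq, and which made these counts was not settled here. Use of strand and selection of RNA were not given in the sources used here. All per-library columns were mapped to samples by name, with 0 left unused. Of 24100 identifiers 24045 matched RefSeq (GRCm38.p6), which gave symbols and positions, and 4418 had no count.

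From these counts, edgeR 4.0.16 in R 4.3.3 was run on all 12 libraries in a layout of the 4 groups (filterByExpr, TMM, glmQLFit and glmQLFTest), with contrasts for line 2 against line 1 in each genotype and for their difference. Adjusted p-values are Benjamini-Hochberg values over all 14263 genes tested, X and Y genes (490) and 20 others without an autosome included. The 41 calls on X and Y are not reported. Log2 CPM used a prior count of 2. SE is that of the fitted log2 fold change. The fit was tested on simulated data. Motifs were searched in both strands of RefSeq promoters. No 2 libraries of a group agreed within sampling noise (chi-square per degree of freedom 20.5 to 179.5).

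The members and lists were chosen with earlier results of these data known. Genes named are Rtf2, Nnt, all called Hox genes, the 12 highest and 12 lowest log2 fold changes among called genes with separate groups and a mean of at least 5 CPM in the higher line, and, from each list, up to 4 called members of largest size and the 2 of highest level. Not every gene taken by that rule is printed, some results are not reported here, and further called list members were named after their values were seen. Of 176 named genes, 77 overlap another RefSeq gene in position.

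Replicate numbers come from the titles. Deviations of log2 CPM of same-numbered WT libraries from their group means correlated at 0.42, 0.41 and 0.30, so the numbers pair the WT libraries. In RTF2-deficient MEFs the values were -0.38, 0.09 and -0.31, so there the numbers do not pair the libraries. The highest correlations there were 0.51 (line 1 replicate 1 with line 2 replicate 3), 0.40 (2 with 1) and 0.38 (3 with 2). The block over all 12 libraries used the numbers and so did not follow this order. As alternatives, normalization was by RLE or by the upper quartile, genes were filtered not at all or at 1 CPM in 3 libraries, and results were recomputed with the 6 WT libraries alone, X and Y genes removed first, DESeq2 1.42.0, limma 3.58.1 voom, a test against a 2-fold change (glmTreat), the replicate block, and each WT library left out. The block among WT libraries alone and the removal of both replicate 1 WT libraries were added after seeing the data.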

Additional observations from a re-analysis of the deposited data

Results flagged for a closer look

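The line difference itself differed between genotypes, by edgeR's test of the difference, for 142 autosomal genes. Differences below are log2 values of WT minus RTF2-deficient MEFs, and the genes are those named in the report. Of the 9 tested Hoxa and Hoxd genes of groups 9 to 13, 4 had a called difference and separated the lines more in WT MEFs, with Hoxd13 at 4.05, Hoxd12 at 3.46, Hoxd11 at 3.72 and Hoxa10 at 2.19, as did Evx2 at 4.11. The 3′ genes Hoxa3, Hoxa4 and Hoxa5 were lower in line 2 in WT MEFs by more, at -1.27, -1.49 and -1.22. Of the 7 tested Hoxc genes 5 had a called difference, with the line difference more positive in RTF2-deficient MEFs: Hoxc4 at -2.02, Hoxc5 at -2.33, Hoxc6 at -2.27, Hoxc8 at -2.16 and Hoxc9 at -1.53.

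Of the other regulators Tbx4 (1.5), Msx1 (2.18) and Tfap2b (5.37) had the more positive difference in WT MEFs, and Pou3f3 (-2.89) the more negative. Of matrix, adhesion and secreted genes Hapln1 (4.71) and Wnt10a (2.85) were more positive in WT MEFs. Col7a1 (-1.21), Col8a1 (-1.03), Loxl2 (-1.39), Vit (-1.71), Cdh10 (-2.32), Cdh11 (-1.27) and Sfrp4 (-2.51) were more negative, and so were Krt7 (-4.46), Chrna1 (-2.33), Gper1 (-3.24) and Ptprz1 (-2.63). WT line 2 alone had Y-linked expression, so genotype, sex and line cannot be told apart in these differences.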

How the results depend on the processing

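The counts higher and lower in line 2 kept within 1.5 times of 530 and 392 under both other normalizations, both filters, the 6 WT libraries alone, removal of X and Y genes first, DESeq2, limma voom and both replicate blocks. The test against a 2-fold change called 167 higher and 143 lower, with 13 differences between genotypes and 23 genes with the same call in both, as its stricter null gives. DESeq2 called 252 such differences and 251 genes with the same call, and the cause was not tested. Leaving out 1 WT library gave 328 to 697 higher, 341 to 405 lower, 64 to 103 differences between genotypes and 117 to 160 genes with the same call, and the cause was not tested. Leaving out both replicate 1 WT libraries, the highest for interferon-stimulated genes, gave 316 higher and 87 differences. With the replicate block 511 genes were higher and 378 lower over all 12 libraries, and 657 and 422 over the 6 WT libraries alone, where 854 of the 922 calls remained. Beside the blocked values given in the report, the block over 12 libraries ended the calls of Ifit2 (adjusted p = 0.0543), Mx1 (adjusted p = 0.103) and Psmb10 (adjusted p = 0.0583) and added Hoxc13 (adjusted p = 0.0474), and it changed no other call of a named gene. Without 1 library Hoxc5 ranged from -0.60 to 0.040 (positive without replicate 1 of line 2, and 0.19 without both replicate 1 libraries) and Hoxc6 from -0.12 to 0.33 (also negative without replicate 2 of line 2, at -0.091), none of them called. Irgm1 ranged from -0.33 (without replicate 1 of line 2) to 0.89 (without replicate 2 of line 2) and was -0.24 without both replicate 1 libraries, also not called.

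Of 176 named genes 49 lost their call without at least 1 library: 26, 42 and 32 without replicates 1, 2 and 3 of line 1, and 40, 6 and 15 without those of line 2. Of these, 24 were interferon-stimulated, MHC class I or chemokine genes. Thbs4 lost its call without replicate 2 or 3 of line 1, Hoxb7, Hoxb9, Tgfb2 and Myod1 without replicate 1 of line 2, Hoxc8 without replicate 2 of line 1, and Krt8 without any one of the 6. Depth limits the genes with few counts in a line, whose ratios have wide counting intervals.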
